A study of Caenorhabditis elegans with 2 samples.

Results

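The regions described here are 979 entries of the pooled DAF-16 peak list that rank below the optimal peak set and were found among the stronger entries of both replicates. They were chosen by rank and signal. On the ce11 build, the pooled list was sorted by signal, and an entry was taken if it lay on a nuclear chromosome below rank 1489 and down to rank 5000, overlapped by at least 1 bp one of the 5000 strongest entries of replicate 1 and one of the 5000 strongest of replicate 2, and overlapped no optimal entry. The pooled list holds 30000 entries, and 3511 nuclear ones lie in that range of ranks. Of these, 141 touched an optimal entry, 979 met the rule (27.9%) and 2391 failed the overlap with at least 1 replicate. These 2391 same-rank entries and the 1464 nuclear optimal entries are the 2 sets against which the members were compared.

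Chromatin immunoprecipitation followed by sequencing recovers DNA bound by a tagged protein. Both samples are biological replicates of 1 group of Caenorhabditis elegans. They were hermaphrodites of strain ZM8745 at the L4 larval stage, collected whole 54 hours after release from synchronization as starved L1 larvae that had hatched after bleaching. The deletion allele mu86 removed the animals' own daf-16. They also carried e1370, a reduced-function mutation of daf-2, the insulin receptor gene on chromosome III, and expressed GFP-tagged DAF-16a from the transgene hpSi15. The ges-1 promoter that drives this transgene is active in the intestine, while the chromatin was prepared from whole animals. The precipitation used an antibody against GFP. The genotype places GFP at the front of DAF-16a, while a note in the labels describes a C-terminal GFP-FLAG tag. With 1 group there was no comparison between conditions. No input or untagged library was analysed here, and the lists hold no read counts, so the depth is unknown.

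DAF-16 is the FOXO-family forkhead transcription factor of the insulin-like pathway. When signalling through the DAF-2 receptor is low, it stays in the nucleus and changes the transcription of genes for stress resistance, metabolism and lifespan, and the intestine is a main site of its action. FOXO proteins bind the DAF-16 binding element TGTTTAC, and promoters of genes that respond to DAF-16 are also known for the DAF-16 associated element TGATAAG, which is a site for GATA factors and for the zinc finger protein PQM-1. Peaks from replicates are often thresholded by the irreproducible discovery rate (IDR), which keeps peaks that rank alike in the replicates. By name, the optimal list was thresholded in that way, and the replicate and pooled lists were its input and hold both peaks and background. Its nuclear entries held pooled ranks of 23 to 1489. The list holds 1489 entries in all, so these nuclear entries all lay within that many of the highest pooled signals. Their best overlapping entries ranked as low as 20266 in replicate 1 and 14854 in replicate 2, so not every optimal entry ranked alike in both.

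The windows below reach 50 bp to either side of the summits of members that carry these elements. They were taken from the RefSeq genome of the WBcel235 assembly, which is ce11, on its plus strand, and belong to the highest-ranked promoter members with each motif that could be shown. Capitals mark the motif named, and a match on the minus strand appears as the reverse complement, so the associated element can read CTTATCA and the binding element, on that strand, GTAAACA. These first 4 hold TGATAAG, in 2 copies at the first and the second.
vrp-1 and Y54G2A.28 (chrIV:3012603-3012703): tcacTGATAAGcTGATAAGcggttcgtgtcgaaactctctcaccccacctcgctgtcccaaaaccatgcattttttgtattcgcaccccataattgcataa
nid-1 (chrV:12909631-12909731): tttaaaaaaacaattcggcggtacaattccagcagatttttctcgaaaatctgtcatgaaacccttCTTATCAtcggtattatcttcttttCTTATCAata
paqr-1 (chrIV:6555041-6555141): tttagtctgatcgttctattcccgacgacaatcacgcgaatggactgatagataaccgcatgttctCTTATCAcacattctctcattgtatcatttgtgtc
pha-4 (chrV:20752775-20752875): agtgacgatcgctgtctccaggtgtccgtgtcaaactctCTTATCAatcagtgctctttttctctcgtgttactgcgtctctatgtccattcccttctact
The next 3 hold TGTTTAC.
T04B8.5 (chrII:621297-621397): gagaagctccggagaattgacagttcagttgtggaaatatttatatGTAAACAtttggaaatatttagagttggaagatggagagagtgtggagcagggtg
elo-1 (chrIV:9526229-9526329): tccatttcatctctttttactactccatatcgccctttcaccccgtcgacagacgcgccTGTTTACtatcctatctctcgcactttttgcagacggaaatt
tsp-2 (chrIII:8237965-8238065): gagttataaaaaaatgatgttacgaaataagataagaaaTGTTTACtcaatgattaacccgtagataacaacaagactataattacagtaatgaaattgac
Both elements lay within 50 bp of the summit at 2 members, and in this one, in the promoter windows of C52E2.4 and C52E2.5, they abut.
C52E2.4 and C52E2.5 (chrII:1843072-1843172): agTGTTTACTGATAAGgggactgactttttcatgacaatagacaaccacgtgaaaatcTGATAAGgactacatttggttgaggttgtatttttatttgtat
The last 2 hold words of unassigned function that an earlier count found at optimal summits, the mixed 7-base word GACGCAG at nhr-58 and the purine repeat GAGAGAG at pkg-2, both on the minus strand.
nhr-58 (chrV:532143-532243): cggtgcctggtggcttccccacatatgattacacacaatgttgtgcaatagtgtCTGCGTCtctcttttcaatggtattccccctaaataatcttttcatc
pkg-2 (chrIV:8535173-8535273): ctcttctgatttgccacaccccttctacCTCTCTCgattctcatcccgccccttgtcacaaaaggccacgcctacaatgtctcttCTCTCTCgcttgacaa

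Signal and rank chose the members and are given as description, without a test. Signal here is the authors' deposited value for each peak, whose scale is not stated, so it is compared only within a list. Members had pooled signals of 48.65 to 84.3 with a median of 68.65, and pooled ranks of 1491 to 4989 with a median of 2228. Their deposited −log10 q-values ran from 0.5148 to 2.775, with a lower quartile of 1.17 and a median of 1.645. Optimal entries had 2.684 to 3.37 (median 3.37), and same-rank entries 0.5144 to 2.775 (median 0.7948). The rule set no limit on q, and the pooled list holds background as well as peaks, so members can include background. In the single replicates their best overlapping entries ranked from 189 to 4994 in replicate 1 (median 2787) and from 502 to 4995 in replicate 2 (median 2716). Neither replicate dominated, since 482 members ranked higher in replicate 1 and 496 in replicate 2. The replicates nevertheless placed single members far apart, and 212 differed by more than 2000 ranks. Within the 1489 strongest entries of a replicate lay 85 members for replicate 1 and 122 for replicate 2, and 3 lay there in both.

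Nearly all members (977) were 420 bp wide. They were not fully separate places: 52 pairs of members overlapped, the members' best entries came to 927 distinct ones in replicate 1 and 929 in replicate 2, and 128 had another member's summit within 1000 bp. An optimal summit lay within 1000 bp of 32 members (3.27%) and of 82 of the same-rank entries (3.43%). Membership thinned out with rank. It covered 71.4% of nuclear entries from the optimal set down to rank 1999, 48.4% at 2000 to 2499, 36.6% at 2500 to 2999, and 4.99% at 4500 to 5000. The same-rank set therefore lay lower in the list, with a median rank of 3686. Of it, 1066 entries met a strong entry of replicate 1 only, 910 of replicate 2 only and 415 of neither, while 2133 overlapped some entry of both replicates when all ranks were allowed.

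**Figure D1:**
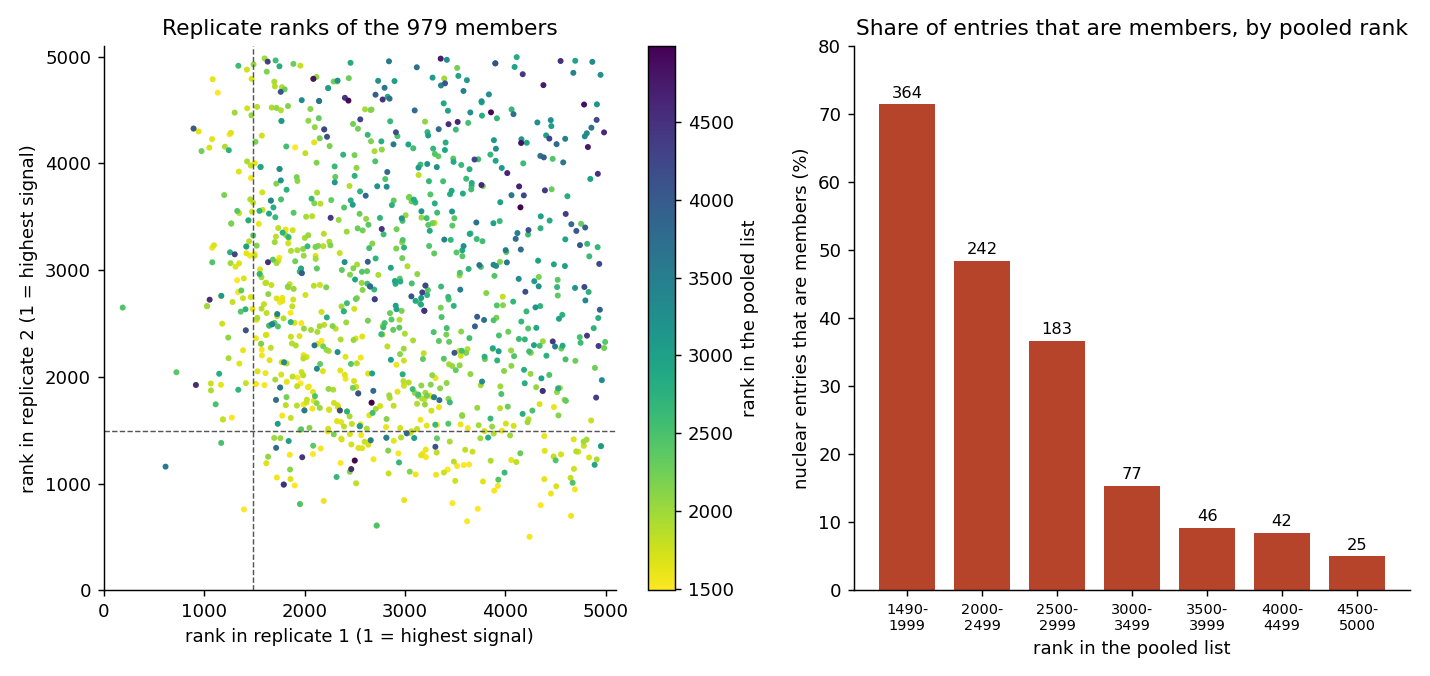
Left, rank of each of the 979 members in replicate 2 (vertical) against replicate 1 (horizontal), with colour giving the pooled rank and dashed lines at rank 1489. Points spread over the square except its lower left corner, where 3 lie inside both dashed lines. Right, the share of nuclear entries that are members in each range of pooled ranks, with the number of members above each bar, which is 71.4% in the first range and 4.99% in the last.

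At the limits of the rule, values ran on without a step. The last optimal entry had rank 1489 and signal 84.33, and ranked 1100 and 3471 in the replicates. The highest member had rank 1491 and signal 84.3, and ranked 1396 and 758. At the lower limit, the last member had rank 4989 and signal 48.65, and the next entry that met the rest of the rule had rank 5004 and signal 48.61. Past rank 5000, 364 such entries followed. The member with the lowest rank in either replicate stood at 4113 and 4995, and the nearest miss at 4644 and 5002.

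The 10 highest members lay between signals 84.3 and 84.09. The first was in a coding exon of hpo-34 on chromosome X (11515391 to 11515810), in no promoter window. A promoter window here covers 1000 bp before and 500 bp after the start of any transcript of a protein-coding gene. Of the 10, 6 summits lay in one, at F31E3.12, at pkg-2 (a cGMP-dependent protein kinase), at the calmodulin gene cmd-1 (24 bp upstream), at aqp-1, at sdha-1 and at T01C3.11. Those at F31E3.12, pkg-2 and aqp-1 were in introns of these genes, and that at T01C3.11 was in its coding exon. An intron of tre-2, which encodes a trehalase, held a member on chromosome IV (6880370 to 6880789) with TGATAAG at its summit, and it ranked 3586 and 1174 in the replicates. An intron of C07D10.5 on chromosome II (7381882 to 7382301) held a member with TGTTTAC, which ranked 1930 and 1993. The remaining member lay on chromosome IV (17318860 to 17319279) outside protein-coding genes, 1725 bp from C49C3.4.

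Promoters were the most frequent class, though the classes overlap. The promoter window held 66 members in coding exons, 108 in introns and 305 outside protein-coding genes. The share of the genome in this window, in exons or in UTRs was not counted, so the shares below do not measure enrichment over the genome. The promoter window held 542 of 979 member summits, 55.4% (exact 95% interval 52.2% to 58.5%), against 48% of optimal summits (Fisher's exact test, adjusted p = 8.53e-04) and 50.7% of same-rank entries (Fisher's exact test, adjusted p = 0.0274). Both differences depended on what they were set against. Without entries near small RNA genes the difference from optimal summits was 1.36 percentage points (Fisher's exact test, adjusted p = 0.595), and against the lower-ranked 732 optimal entries it was 3.18 points (Fisher's exact test, adjusted p = 0.27). Among entries down to rank 3000 the difference from same-rank entries was 1.48 points (Fisher's exact test, adjusted p = 0.789), and past rank 3000 it was 0.884 points (Fisher's exact test, adjusted p = 0.819). All tests here count entries as independent and adjust over the 20 comparisons of 10 classes with 2 sets by Benjamini-Hochberg. They describe peaks within these libraries and carry no measure of spread between the 2 replicates.

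Within promoters, member summits sat close to the start. The median position relative to the nearest start, negative when upstream, was -138 bp in members, -231 bp in optimal entries and -132 bp in same-rank entries. Summits upstream of the start made up 73.4% of promoter members, against 83.4% of promoter optimal entries and 68.8% of same-rank ones. Within 100 bp of the start lay 146 member summits (26.9%), against 18.5% and 25.1%. Neighbouring genes that point apart can share a summit, and 102 member summits fell in the windows of at least 2 genes. These distances were not tested.

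Coding exons held 143 member summits, 14.6% (exact 95% interval 12.5% to 17%), against 68 optimal summits, 4.64% (3.62% to 5.85%). This was 3.14 times the optimal share (Fisher's exact test, adjusted p = 3.02e-16). Of the 143, 66 also lay in a promoter window. Same-rank entries had a higher share still, 20.8% (Fisher's exact test, adjusted p = 6.3e-05), and coding exons were more frequent at the end of the list than at its start in both sets. They held 10.7% of members down to rank 1999, 39 of 242 at 2000 to 2499, 13.1% at 2500 to 2999, 18.7% at 3000 to 3999 and 26.9% at 4000 to 5000. In these ranges they held 5.45%, 14%, 19.1%, 20.9% and 24.7% of same-rank entries, so the order of the sets was not the same throughout. Down to rank 3000 the difference from same-rank entries was -1.96 points (Fisher's exact test, adjusted p = 0.486) and past it -1.35 points (Fisher's exact test, adjusted p = 0.754), so it was not called between entries of like rank.

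The 10 highest members in coding exons, named after their values were seen, lay in exons of hpo-34, T01C3.11, the cathepsin B-like gene cpr-9, gldr-2, ncl-1 or the overlapping ZK112.4, scb-1, the cathepsin Z gene cpz-1, the Nudix hydrolase gene ndx-2, pgap-3 and gst-1. The gst-1 member, on chromosome III (9059148 to 9059567), overlapped the same replicate entries, ranked 1514 and 1933, as a second member 251 bp upstream of the gst-1 start. The cpr-9 member, on chromosome V (12003050 to 12003469), had signal 84.03 and ranked 1567 and 2310. Its summit was 207 bp inside the gene, and an optimal summit lay on the upstream side.

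Untranslated regions also held more members than optimal entries. The share was 11.5% of members against 5.19% of optimal summits (Fisher's exact test, adjusted p = 5.92e-08) and 9.49% of same-rank entries (Fisher's exact test, adjusted p = 0.128). Of the 113 member summits, 46 were in 5' UTRs and 67 in 3' UTRs alone, where the optimal set had 46 and 30. The highest in 3' UTRs were those of mip-2, igcm-3, the nuclear receptor gene nhr-3, F25B5.3 and C06A8.6, named after their values were seen. Introns held 23.9% of members, 27% of optimal summits (Fisher's exact test, adjusted p = 0.128) and 25.7% of same-rank entries (Fisher's exact test, adjusted p = 0.346). Space outside protein-coding genes held 49.9% of members, 63.2% of optimal summits (Fisher's exact test, adjusted p = 5.6e-10) and 44% of same-rank entries (Fisher's exact test, adjusted p = 0.0036). The last of these calls was lost down to rank 3000, where the difference was 1.05 points (Fisher's exact test, adjusted p = 0.887), past it (2.92 points, Fisher's exact test, adjusted p = 0.722), and with replicate 1 alone setting membership (3.77 points, Fisher's exact test, adjusted p = 0.0519).

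**Figure D2:**
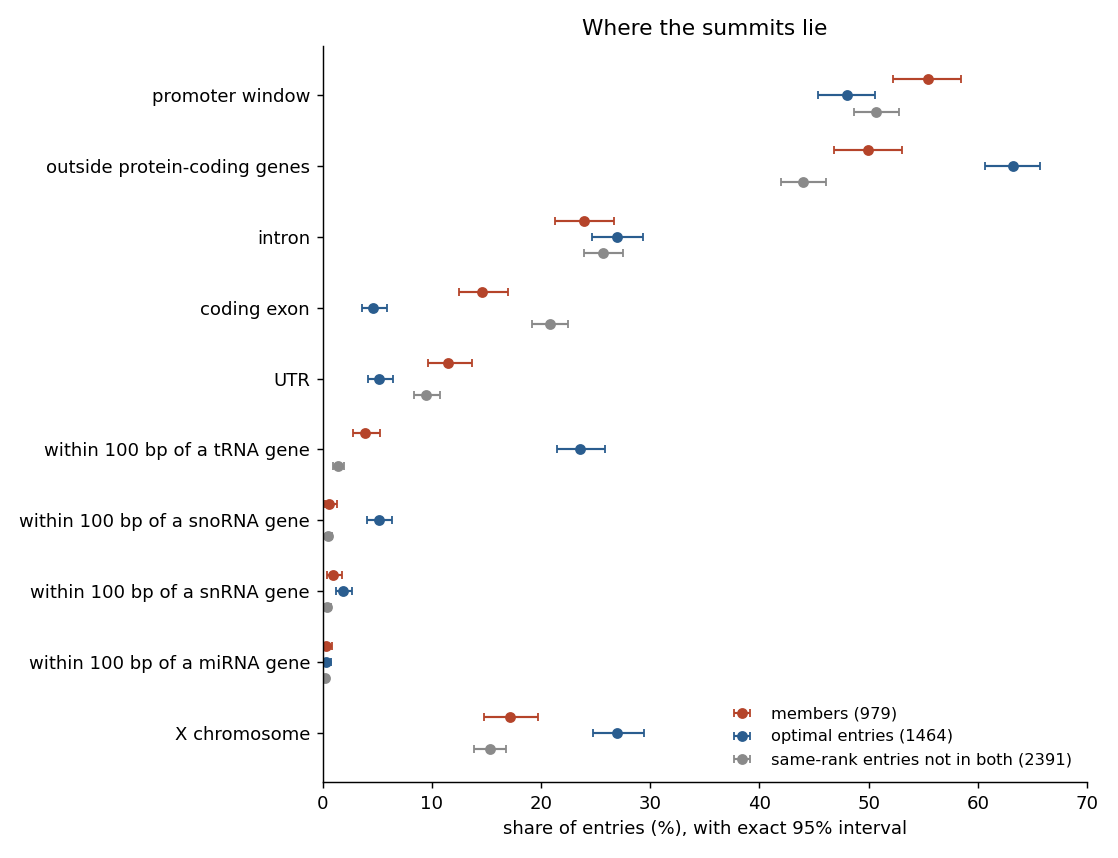
Share of summits in each class of position for 979 members (top point of each group), 1464 optimal entries and 2391 same-rank entries not found in both replicates, with exact 95% intervals. Members lie between the other sets for coding exons (14.6%, 4.64% and 20.8%) and near the same-rank entries for tRNA genes (3.88%, 23.6% and 1.42%).

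Genes transcribed into small RNAs, which fill much of the optimal set, were rare among members. Transfer RNA genes, which RNA polymerase III transcribes, lay within 100 bp of 38 member summits, 3.88% (exact 95% interval 2.76% to 5.29%), against 23.6% of optimal summits (Fisher's exact test, adjusted p = 2.73e-44). The difference was -19.8 points, and against the lower-ranked 732 optimal entries it was -11.6 points (Fisher's exact test, adjusted p = 2.23e-15). Counted by gene, 38 of 612 nuclear tRNA genes (6.21%) had a member and 358 (58.5%) an optimal summit. Members could not overlap an optimal entry, so a tRNA gene with an optimal summit left little room for a member summit. The rule itself thus lowered the member count at tRNA genes, and the test against optimal entries is not free of it. Members still held more than same-rank entries, of which 1.42% lay by a tRNA gene (Fisher's exact test, adjusted p = 5.64e-05). That difference was 1.9 points down to rank 3000 (Fisher's exact test, adjusted p = 0.168) and 0.0829 points past it (Fisher's exact test, adjusted p = 0.754). With replicate 1 alone setting membership it was 1.03 points (Fisher's exact test, adjusted p = 0.063). The tRNA members were mostly near the top of the range, with a median rank of 1892, and 22 of 38 ranked above 2000. How reads were assigned among near-identical tRNA genes is not stated in the sources used here.

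Small nucleolar RNA genes, whose products guide the modification of ribosomal RNA, lay by 6 members (0.613%), against 5.12% of optimal summits (Fisher's exact test, adjusted p = 1.99e-10) and 0.502% of same-rank entries (Fisher's exact test, adjusted p = 0.837). Against the lower-ranked 732 optimal entries the difference was -1.44 points (Fisher's exact test, adjusted p = 0.031), in place of -4.51 points. As at tRNA genes, the rule left little room for a member at a gene with an optimal summit. The highest snoRNA member, by D2021.6, was also the member in the promoter window of sdha-1. Small nuclear RNA genes lay by 9 members (0.919%), 1.84% of optimal summits (Fisher's exact test, adjusted p = 0.128) and 0.418% of same-rank entries (Fisher's exact test, adjusted p = 0.166). The difference from optimal entries was called with replicate 2 alone setting membership (-1.31 points, Fisher's exact test, adjusted p = 8.91e-04) and with replicate 1 alone (-1.01 points, Fisher's exact test, adjusted p = 0.0161), and that from same-rank entries with replicate 1 alone (0.68 points, Fisher's exact test, adjusted p = 0.0161). Among these 9 were sls-2.14 and sls-2.3, genes for the spliced leader that is joined to many worm mRNAs. MicroRNA genes lay by 3 members, cel-mir-8196a, cel-mir-8196b and cel-mir-64, and the shares of 0.306%, 0.342% and 0.167% in members, optimal and same-rank entries were not called apart (Fisher's exact test, adjusted p = 1 and 0.469).

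The X chromosome held 17.2% of members, 27% of optimal summits (Fisher's exact test, adjusted p = 3.69e-08) and 15.3% of same-rank entries (Fisher's exact test, adjusted p = 0.242), and makes up 17.7% of the nuclear genome. The X chromosome carries many tRNA genes, and 15 of the 38 tRNA members lay on it. Without entries near tRNA, snoRNA and snRNA genes the difference from the optimal set was still called, at -5.93 points (Fisher's exact test, adjusted p = 0.00301) in place of -9.89 points. Against the lower-ranked 732 optimal entries it was -4.7 points (Fisher's exact test, adjusted p = 0.031). On the autosomes the share of members ran from 15.4% on IV to 18.1% on V.

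The DAF-16 associated element marked member summits above their own surroundings. TGATAAG lay within 50 bp of 55 member summits, 5.62% (exact 95% interval 4.26% to 7.25%). Windows of the same length 500 bp to the left and right of the same members held it at 2.45% and 2.25% (exact McNemar tests, adjusted p = 0.00101 and 8.67e-04). Of all 992797 windows of that length laid end to end over the nuclear genome, 1.72% held it. Motifs were searched on both strands, and a match describes letters in a window, not binding. The share was lower than the 8.81% of optimal summits (Fisher's exact test, adjusted p = 0.0185), and close to the 5.94% of same-rank entries (Fisher's exact test, adjusted p = 0.766). The gap to optimal summits was not called within 30 bp of the summit, where it was -0.32 points (Fisher's exact test, adjusted p = 0.891), within 100 bp, where it was -3.08 points (Fisher's exact test, adjusted p = 0.0972), or for members down to rank 3000 (-2.09 points, Fisher's exact test, adjusted p = 0.254). Nor was it called when overlapping entries counted once, a setting added with the data in view (-2.74 points, Fisher's exact test, adjusted p = 0.0551).

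TGATAAG was concentrated in the upper part of the members. It was at 7.14% of members down to rank 1999, 7.02% at 2000 to 2499 and 5.46% at 2500 to 2999, but at 1 of 123 members at 3000 to 3999 (0.813%) and 1 of 67 at 4000 to 5000 (1.49%). Same-rank entries had 10%, 7.89%, 7.02%, 5.98% and 4.58% in the same ranges, above the members in each. Past rank 3000 together, the difference from same-rank entries was -4.2 points (Fisher's exact test, adjusted p = 0.0266), with 190 members in that comparison. By position, TGATAAG was at 7.69% of members in introns (18 of 234), 6.13% of those outside protein-coding genes (30 of 489), 5.17% of those at promoters (28 of 542), 4.42% of those in UTRs (5 of 113) and 1.4% of those in coding exons (2 of 143). The 55 members with it had a median rank of 2973 in replicate 1 and 2136 in replicate 2.

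Several of these summits lay at genes with known roles. The member shared by vrp-1 and Y54G2A.28 on chromosome IV, printed above with its tandem copies, had signal 83.38 and ranked 3519 and 1165. The nid-1 member, by the gene for the basement membrane protein nidogen, had signal 81.52 and ranked 2078 and 1702. The paqr-1 member, in an intron of this gene for an adiponectin receptor relative, had signal 80.98 and ranked 2500 and 1216. Next came pfkb-1.1 with signal 80.05 and ranks of 1823 and 1954, and then pha-4, the FOXA factor of the pharynx and intestine, with 78.83 and ranks of 1348 and 3063. The match lay 35, 19, 19 and 8 bp from the summit at vrp-1, nid-1, paqr-1 and pha-4.

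The DAF-16 binding element was scarce. TGTTTAC lay within 50 bp of 19 member summits, 1.94% (exact 95% interval 1.17% to 3.01%), against 0.613% of left flanks (exact McNemar test, adjusted p = 0.0244) and 1.02% of right flanks (exact McNemar test, adjusted p = 0.144), and 1.12% of genome windows. The left-flank call was lost within 30 bp of the summit (0.511 points, exact McNemar test, adjusted p = 0.302), without small RNA genes (1.19 points, exact McNemar test, adjusted p = 0.0631) and with replicate 2 alone setting membership (0.635 points, exact McNemar test, adjusted p = 0.149). Optimal summits held TGTTTAC at 4.17%, 2.15 times the member share (Fisher's exact test, adjusted p = 0.0159), and same-rank entries at 1.42% (Fisher's exact test, adjusted p = 0.478). Against the lower-ranked 732 optimal entries the difference was -0.928 points (Fisher's exact test, adjusted p = 0.415). By 30 bp bin, members held TGTTTAC at 0.613% just before the summit and 0.306% just after it, against 1.16% and 1.57% of optimal entries. The highest member bin was 1.02%, from 60 to 30 bp before the summit. The variant TATTTAC was at 1.53% of members, 1.23% of optimal summits and 2.09% of same-rank entries, and at 2.25% and 1.94% of the flanks, and no test of it passed.

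The highest promoter members with TGTTTAC were at T04B8.5, sem-2, elo-1, tsp-2 and dif-1. At T04B8.5 on chromosome II the element lay 1 bp from the summit, signal was 82.85, and ranks were 3320 and 1550. At elo-1, which encodes a fatty acid elongase, it lay 12 bp from the summit, signal was 75.17, and ranks were 2472 and 1559. The sem-2 member, by the SoxC factor gene, also held TGATAAG and had signal 75.67 and ranks of 4480 and 1254. The tsp-2 member, by a tetraspanin gene, had 74.23 and ranks of 1875 and 2313, and the member at dif-1, by a mitochondrial carrier gene, had 72.1 and ranks of 2988 and 2264. In all, 894 of 979 members (91.3%) had none of the binding element, its variant or the associated element within 50 bp, and 408 had at least 1 of the 10 motifs searched.

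**Figure D3:**
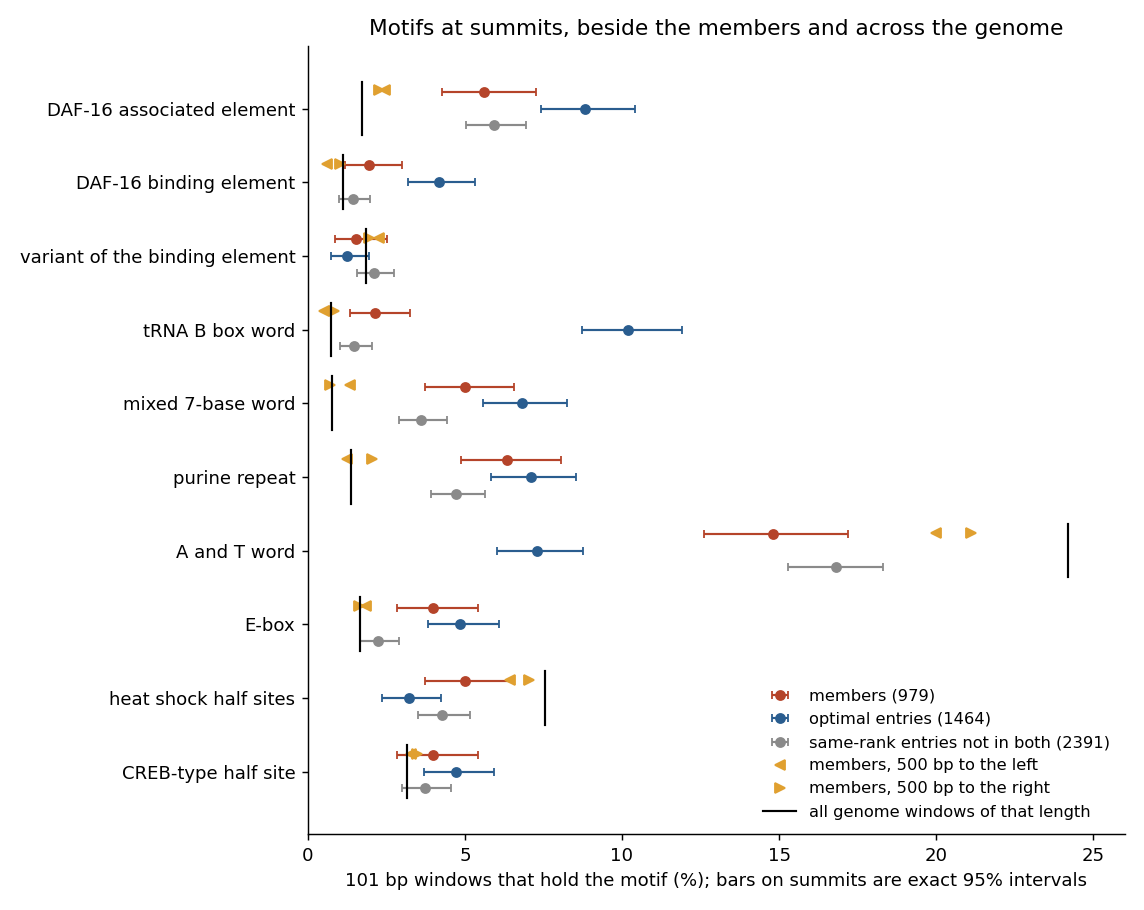
Share of windows, 50 bp to either side of a point, that hold each of 10 motifs at summits of members (top point of each group), optimal entries and same-rank entries, with exact 95% intervals, at the members' left and right flanks (triangles) and in all genome windows (vertical lines). For TGATAAG the member summits stand at 5.62% and both flanks under 2.5%.

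Other words had larger differences between summits and flanks. GAGAGAG was at 6.33% of member summits, against 1.23% and 2.04% of left and right flanks (exact McNemar tests, adjusted p = 3.1e-08 and 9.31e-06) and 1.36% of genome windows. GACGCAG was at 5.01% of summits, against 1.33% and 0.715% of flanks (exact McNemar tests, adjusted p = 1.59e-05 and 7.46e-08) and 0.767% of genome windows. Neither was called different from the optimal set, which had 7.1% and 6.83% (Fisher's exact test, adjusted p = 0.602 and 0.156), or from same-rank entries, which had 4.73% and 3.6% (Fisher's exact test, adjusted p = 0.156 for each). Both words came from an earlier word count at the optimal summits, so the comparison with that set is no independent test. GAGAGAG was most frequent in members in UTRs, at 14 of 113 (12.4%), and GACGCAG in those outside protein-coding genes, at 35 of 489 (7.16%). The E-box CACGTG, a site for basic helix-loop-helix factors, was at 3.98% of summits, against 1.84% and 1.63% of flanks (exact McNemar tests, adjusted p = 0.0117 and 0.0052) and 1.67% of genome windows. It was at 4.85% of optimal summits (Fisher's exact test, adjusted p = 0.479) and 2.22% of same-rank entries (Fisher's exact test, adjusted p = 0.028). The last call was lost on both sides of rank 3000, with 1.93 and -0.0054 points (Fisher's exact test, adjusted p = 0.247 and 1), with either replicate alone and within 30 or 100 bp of the summit.

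The word GGTTCGA, part of the internal B box promoter of tRNA genes, was at 2.15% of members and 10.2% of optimal summits (Fisher's exact test, adjusted p = 5.69e-15), and at 1.46% of same-rank entries (Fisher's exact test, adjusted p = 0.329). Of its 21 members, 15 lay by a tRNA gene. It was above the members' flanks, at 0.511% and 0.817% (exact McNemar tests, adjusted p = 0.0052 and 0.0371), and 0.725% of genome windows. Without entries near small RNA genes the difference was 0.108 points from the left flanks and -0.108 from the right (exact McNemar tests, adjusted p = 1 for each). The A and T word AAAAATT ran the other way, at 14.8% of member summits against 20% and 21.1% of flanks (exact McNemar tests, adjusted p = 0.0052 and 0.00146) and 24.2% of genome windows, but at 7.31% of optimal summits (Fisher's exact test, adjusted p = 3.93e-08) and 16.8% of same-rank entries (Fisher's exact test, adjusted p = 0.329). Base composition moved with these words: summit windows were 40.8% G and C in members (SD 10.4), 45.8% in optimal entries (SD 8.77) and 39.8% in same-rank entries (SD 11.1), with 37.1% and 36.9% in the members' flanks and 35.4% in the genome. Its part in the motif differences was not tested. GGTTCGA and AAAAATT came from an earlier word count at the optimal summits, so their comparison with that set is no independent test. The heat shock factor word GAANNTTC was at 5.01%, 3.21% and 4.27%, and the CREB-type word TGACGT at 3.98%, 4.71% and 3.72%, in members, optimal and same-rank entries, with 7.55% and 3.16% of genome windows. Neither motif was called against any set or flank, with adjusted p of 0.0957 (exact McNemar test, GAANNTTC, right flanks) as the lowest.

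**Figure D4:**
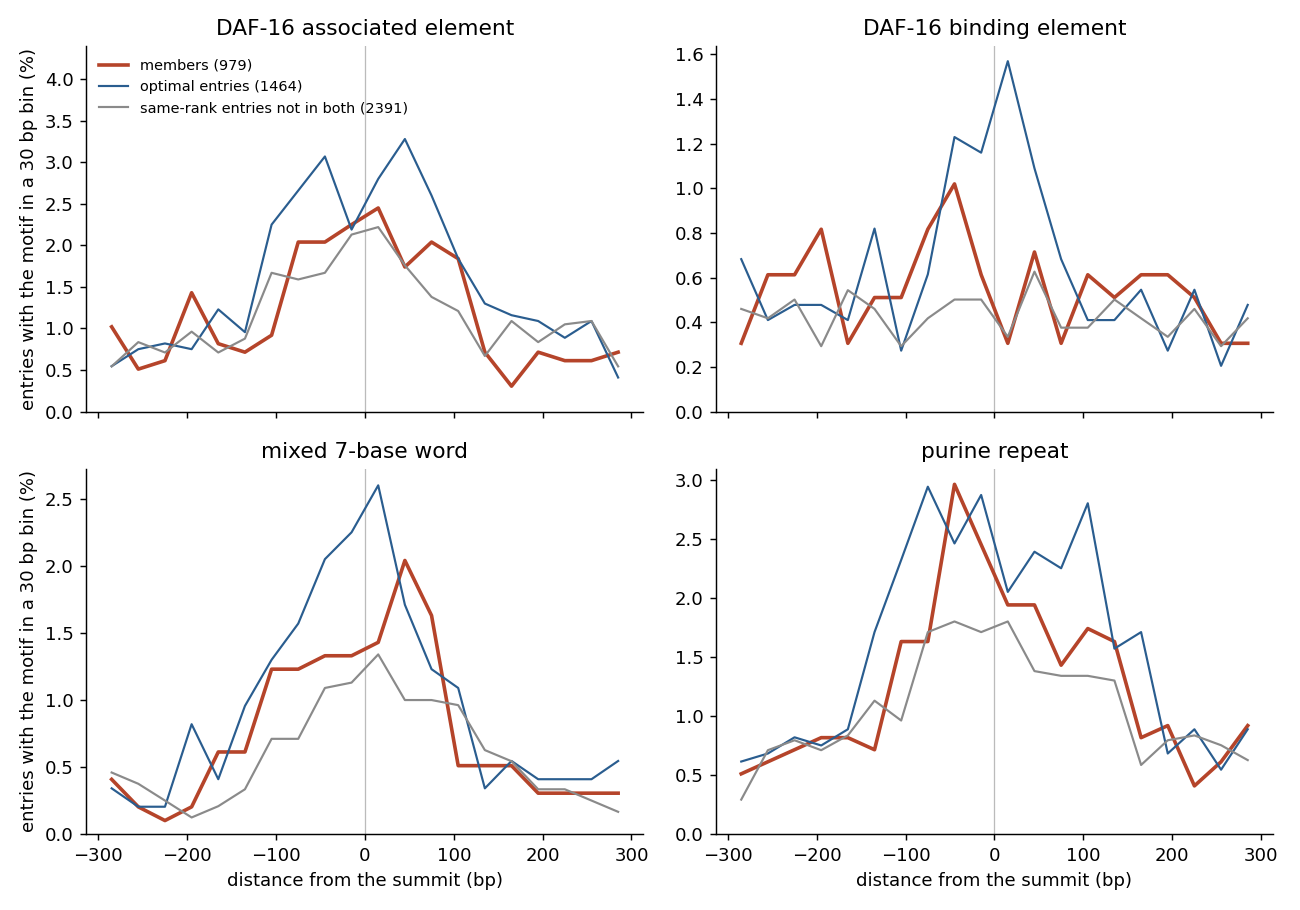
Share of entries with a motif in each 30 bp bin from 300 bp before to 300 bp after the summit, for members (thick line), optimal entries and same-rank entries. The panels show the associated element, the binding element, the mixed 7-base word and the purine repeat in reading order. For TGATAAG the members reach 2.45% in the bin just after the summit and 0.511% to 1.43% in the bins beyond 180 bp on the left.

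Of 19973 nuclear protein-coding genes, 610 (3.05%) had a member summit in a promoter window. For optimal summits this background was 836 genes (4.19%) and for same-rank entries 1373 genes (6.87%). Both kinds of summit were at 22 genes. These were 3.61% of the member genes, beside the 4.19% of all genes with an optimal summit, and 2.63% of the optimal genes, beside the 3.05% of all genes with a member. The rule kept overlapping entries apart. Genes with both included the aquaporin gene aqp-1, the SMAD gene sma-2, the G protein alpha genes gsa-1 and egl-30, wdr-23, whose product restrains SKN-1, the CREB relative crh-2 and hsp-3. At aqp-1 the member and the optimal summit, ranked 1497 and 479, lay 1207 bp apart by different starts. At wdr-23 ranks 1927 and 617 lay 1324 bp apart. Gene lists below were not tested, and each count is to be read beside the 3.05% of all genes, with the optimal set's count second. Up to 4 genes of a list were named by rank, and further ones after their values were seen. A member counted for every gene whose window held its summit, so a named gene can share it with a neighbour. For example, the dod-21 member was also in the window of cld-1, and the mev-1 member in those of ced-9 and jmjd-4. Some summits lay near the far end of the window, as at nuo-5, 998 bp upstream.

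Of 40 genes reported to rise with DAF-16 in daf-2 mutants, 3 had a member (7.5%) and 6 an optimal summit (15%), against 3.05% and 4.19% of all genes. They were aqp-1 (signal 84.15, ranks 1902 and 983), spp-1, a saposin-like antimicrobial protein gene, with TGATAAG at the summit (signal 73.33, ranks 4910 and 1227), and gpd-2, a glyceraldehyde-3-phosphate dehydrogenase gene (signal 61.18, ranks 3571 and 3185). The aqp-1 summit lay in an intron of the gene, 204 bp before 1 of its transcript starts. Of 20 genes reported to fall, 3 had a member (15%) and 3 an optimal summit. These were dod-21 (signal 77.57, ranks 2018 and 1759) and the yolk protein genes vit-5 (signal 64.51, ranks 2678 and 1662) and vit-4 (signal 63.38, ranks 4210 and 2613, with TGATAAG). Same-rank entries lay at 12.5% of the genes reported to rise and 15% of those reported to fall, against 6.87% of all genes. The vit-5 summit lay 34 bp and the vit-4 summit 130 bp upstream of the start, on chromosome X (3403227 to 3403646 and 3563885 to 3564304). In a family of near-identical genes such as vit, how reads were assigned is not stated in the sources used here.

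Among lists of genes around DAF-16, 4 of 27 genes of the insulin-like signalling cascade had a same-rank entry (14.8%), 2 an optimal summit and 2 a member (7.41%). They were bar-1, the beta-catenin gene, with TGATAAG at the summit (signal 76.95, ranks 1843 and 3300), and pptr-1, the PP2A subunit gene whose product acts on AKT-1 (signal 74.77, ranks 2521 and 2127). TOR and AMPK signalling had 0 of 23 and 3, GATA factors 0 of 12 and 3, insulin-like peptides 0 of 39 and 2, and antioxidant enzymes and metallothioneins 0 of 25 and 0. Stress and longevity transcription factors had 5 of 38 (13.2%) with a member, 5 with an optimal summit and 17 (44.7%) with a same-rank entry. The 5 were nhr-49, a regulator of fat metabolism (signal 83.21, ranks 1574 and 2255), nhr-8 (82.55, ranks 1623 and 2395), pha-4, nhr-66 (66.47, ranks 3513 and 3165) and mxl-3, a repressor of lysosomal lipases (60.1, ranks 1842 and 1399).

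None of 11 genes looked up by name, among them daf-16 and daf-2, had a member. At hlh-30, the TFEB relative, an entry at pooled rank 1757 failed because it ranked 7143 in replicate 1, against 1129 in replicate 2. At skn-1, 3 entries at pooled ranks 2764, 3636 and 3889 failed, with replicate 1 and 2 ranks of 3100 and 11452, 2156 and 11632, and 22594 and 1765. Each was strong in 1 replicate only. At pqm-1 an entry at rank 4868 ranked 3218 in replicate 1 and met none in replicate 2. The elt-2 promoter held an optimal entry at rank 313, whose replicate ranks were 508 and 193. For hsf-1, daf-2, mtl-1, ges-1 and unc-119 the highest entries ranked 17558, 12718, 15619, 16197 and 11421, and daf-16 and sod-3 had none in the window.

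Several housekeeping lists had a member at a larger share of genes than the 3.05% of all genes. The same held for same-rank entries, which lay at 6.87% of all genes. They were at 19.3% of ribosomal protein genes, 18.6% of respiratory chain genes, 13.2% of chaperone genes and 11.1% of histone genes. Cytosolic ribosomal proteins had 8 of 83 (9.64%) with a member and 16 (19.3%) with an optimal summit. The highest were rps-0 (signal 74.14, ranks 4231 and 1603), rpl-5 (73.5, ranks 1791 and 2548), rps-13 (66.46, ranks 2462 and 2121) and rps-24 (66.21, ranks 1330 and 3554). The rpl-5 summit on chromosome II (8569364 to 8569783) also lay in the window of the collagen gene col-38. The nuclear-encoded respiratory chain had 7 of 59 (11.9%) and 10 (16.9%). They were sdha-1 and mev-1 of complex II (signals 84.12 and 80.88), nuo-5, ndua-1 and nduf-11 of complex I, ucr-11 of complex III and the cytochrome c gene cyc-2.1 (signal 78.75, ranks 2573 and 1332). The list leaves out some complex I subunits, such as ndub-10, which had a member with signal 78.8. The mev-1 summit lay 90 bp upstream on chromosome III (10333977 to 10334396) and ranked 3339 and 1716.

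Heat shock proteins and chaperones had 7 of 68 (10.3%) and 14 (20.6%). Members were at dnj-20 (83.01, ranks 1716 and 1784), dnj-19 and dnj-4 of the DnaJ co-chaperones, at cct-7 and cct-6 of the cytosolic chaperonin (73.27 and 64.02), at hsp-3 and at pdi-2, a protein disulfide isomerase gene. The hsp-3 member, in a coding exon 39 bp past the start, was the 1 of the 7 whose gene also had an optimal summit. Translation factors had 2 of 43 (eef-1B.1 and eif-2Bdelta) and 8, aminoacyl-tRNA synthetases 1 of 32 (kars-1) and 2, and proteasome subunits 1 of 33 and 2. That proteasome gene was rpn-6.1, of the regulatory particle, whose summit held TGATAAG (67.41, ranks 3333 and 4066). Histones had 8 of 81 (9.88%) and 3 (3.7%), but the 8 genes shared 6 members. Many histone genes, though not all, stand in near-identical copies among which the assignment of reads is not stated. The 8 were his-3 and his-4 (1 member, signal 65.06), a copy of his-15 (62.95, ranks 1340 and 1879), his-67 and his-68 (1 member, 61.69), his-42, his-14 and his-24.

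Metabolic and lysosomal lists had 1 to 3 genes with a member each. Same-rank entries lay at 21.6% of lipid metabolism genes, 15.4% of autophagy and lysosome genes and 19% of vacuolar ATPase genes. Lipid metabolism had 3 of 51 (5.88%) with a member and 6 with an optimal summit. They were the delta-9 desaturase gene fat-6 (75.51, ranks 3974 and 2751), elo-1, and mboa-2, which encodes a membrane-bound acyltransferase (70.03, ranks 1757 and 1900). Autophagy and lysosome genes had 2 of 39 and 7. They were epg-8, the ATG14 relative (70.48, ranks 4590 and 1785), and lmp-1, a lysosomal membrane protein gene (61.95, ranks 3297 and 3625). The vacuolar ATPase had vha-8 alone of 21 (83.43, ranks 1601 and 1923) and 1.

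Large families that respond to the environment had 0 to 10 genes with a member each. Nuclear hormone receptors had 10 of 274 (3.65%) and 9 (3.28%). Besides nhr-49, nhr-8 and nhr-66 they included nhr-58, with GACGCAG 7 bp from its summit (81.93, ranks 3155 and 1598), and nhr-142 (79.43, ranks 4681 and 1415). Lysozymes, saposin-like proteins and antimicrobial peptides had 4 of 103 and 3. Besides spp-1 they were spp-2 and spp-6, which shared 1 member (68.07, ranks 974 and 4115), and spp-4 nearby on chromosome X. Glutathione S-transferases had gst-1 and gst-7 of 49 (83.5 and 78.59) and 2, UDP-glucuronosyltransferases ugt-20 of 67 (79.54) and 5, and cytochromes P450 0 of 75 and 4. Collagens had 5 of 178 (2.81%) and 4, led by col-38, col-86, col-71 and col-37. C-type lectins had clec-178 and clec-51 of 240 (0.833%) and 2, and chemoreceptors srh-89 of 1285 (0.0778%) and 10 (0.778%).

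Because the transgene is driven in the intestine, tissue lists were counted as well. The intestine list had 3 of 47 genes with a member (6.38%), 8 with an optimal summit (17%) and 12 with a same-rank entry (25.5%). The 3 were eps-8, which shapes the brush border (79.14, ranks 1722 and 2735), vit-5 and vit-4. Neurons had 0 of 50, 0 and 5. Muscle had 1 of 49, 2 and 6, and its member was at sca-1, the calcium pump gene (77.25, ranks 1180 and 2498). Germline had 2 of 50, 2 and 2, at mex-1 (73.51, ranks 1207 and 4156) and syp-4 (72.56, ranks 1270 and 3436). The mex-1 summit lay 900 bp upstream and also fell in the windows of rab-7 and W03C9.5, and the syp-4 summit in that of H27M09.5. The lists are small.

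**Figure D5:**
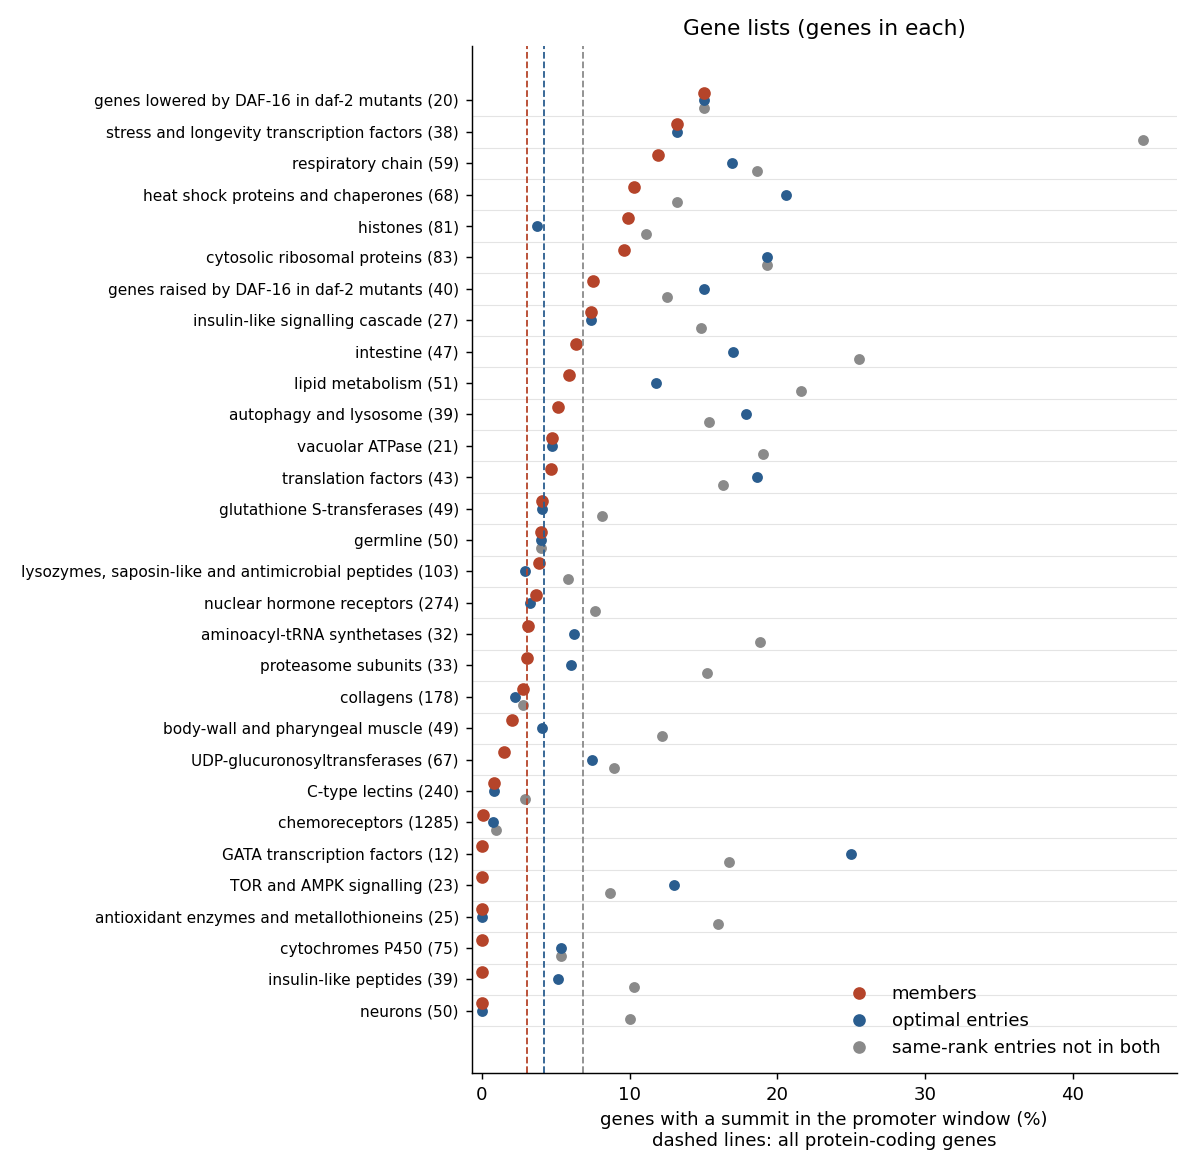
Share of the genes of each of 30 lists with a summit in the promoter window, for members (top point of each row), optimal entries and same-rank entries, with dashed lines at the shares of all protein-coding genes (3.05%, 4.19% and 6.87%). Stress and longevity transcription factors reach 44.7% for same-rank entries, and ribosomal protein, chaperone and respiratory chain genes lie right of all 3 lines for optimal entries.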

How the data were processed

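The 2 replicates were analysed through 4 ce11 peak lists. Signal per peak was deposited by the authors, with its scale not stated, and −log10 q-values per peak were deposited by the authors beside it. Per the file names, the replicate and pooled lists are input to IDR and the optimal list its output. The aligner, peak caller, threshold and read depth were not given in the sources used here. Members and gene lists were chosen with earlier results of these data known, and 4 of the words (the tRNA B box word, the mixed word, the purine repeat and the A and T word) came from an earlier word count at these optimal summits. Summits were placed on Ensembl 115 genes (WBcel235, 29314 transcript starts). Small RNA genes counted within 100 bp and motifs within 50 bp of a summit, with flanks 500 bp away. Classes and motifs were compared by two-sided Fisher's exact tests and flanks by two-sided exact McNemar tests, adjusted by Benjamini-Hochberg over 20 tests each, with a threshold of 0.05. The tests were checked on simulated data. Named genes were those at the 10 highest members, up to 4 per list, 5 each with TGATAAG and TGTTTAC, and 11 fixed genes. The 18 alternatives varied limits, windows, sets and replicates. Python 3.11.15, numpy 2.4.6, scipy 1.17.1 and matplotlib 3.10.9 were used.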

Additional observations from a re-analysis of the deposited data

How the results depend on the processing

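Differences are in percentage points, members minus the other set. Of 60 tested differences 29 were called, and of 232 values of these under 18 alternatives 194 kept the call and direction, 36 lost the call and 2 turned sign. Among differences not called as reported, 23 alternative values were called in the same direction, among them snRNA against optimal entries with either replicate left out (-1.31 and -1.01), UTR against same-rank entries without replicate 2 (3.19) and GACGCAG against optimal entries without small RNA genes (-3.87). Coding exon and tRNA shares against optimal entries, and TGATAAG against both flanks, kept their calls under every alternative run. For tRNA genes this does not test the call free of the rule, because no alternative let members overlap an optimal entry. The promoter difference from optimal entries was 1.36 without small RNA genes and 3.18 against the lower-ranked optimal entries. Against same-rank entries, values for the limit at rank 3000 and for ranks up to 3000 were 1.48 (promoter), -1.96 (coding exon), 1.9 (tRNA), -0.433 (snoRNA) and -0.149 (GAGAGAG). Past rank 3000 they were 0.884 (promoter), -1.35 (coding exon), 0.0829 (tRNA), -1.9 (X), -4.2 (TGATAAG), -0.316 (TGTTTAC), 0.806 (TATTTAC), -0.615 (GGTTCGA), -1.39 (GACGCAG), 3.03 (AAAAATT), -0.0054 (CACGTG) and -0.55 (TGACGT). A promoter of 2000 bp gave 3.76.

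Against optimal entries, TGATAAG gave -2.09 with the limit at rank 3000, -2.74 with overlapping entries once, and -0.32 and -3.08 within 30 and 100 bp of the summit, where the difference from same-rank entries was 0.0522 and 1.71. TGTTTAC gave -2.01 with the limit at rank 3000 and -0.928 against the lower-ranked optimal entries. Signs also turned without small RNA genes for introns against optimal entries (2.53), GGTTCGA against same-rank entries (-0.423) and GGTTCGA against right flanks (-0.108), and for microRNA genes against lower-ranked optimal entries (0.17). With overlapping entries once, TATTTAC against optimal entries was -0.0122 and TGACGT against same-rank entries -0.000366. Within 100 bp GAANNTTC against same-rank entries was -0.116 and TGACGT against left flanks -0.817, and within 30 bp TGACGT against optimal entries was 0.299.

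With 1 replicate left out of the membership rule, differences from same-rank entries ran from 1.03 to 2 (tRNA), -0.316 to 0.792 (TGATAAG), -0.311 to 3.19 (UTR), -0.0108 to 0.134 (snoRNA), -0.0783 to 0.68 (snRNA), -0.155 to 0.13 (microRNA), -0.801 to 0.189 (TATTTAC), -4.22 to 2.07 (AAAAATT), -0.318 to 1.04 (GAANNTTC) and -0.333 to 0.874 (TGACGT), and TGACGT against left flanks from -0.196 to 1.32.

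Members numbered 622 with summits within 100 bp, 317 with the 3000 strongest entries of each replicate, 1841 with a replicate limit past 5000, and 1889 to 2045 with 1 replicate left out, when 1156 to 1213 genes had a member. The causes were not tested. With 2 replicates of 1 group and no depth, no spread between samples could be given.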

Other observations

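The 5 highest intron members with TGATAAG, named after their values were seen, lay in tre-2, paqr-1, scd-1, T15B12.1 and ZK185.5. The scd-1 member, on chromosome X (12518413 to 12518832), had signal 80.04 and ranked 3217 and 1543 in the replicates. It lay 7166 bp from the nearest end of the gene. The T15B12.1 member, on chromosome III (5291277 to 5291696), had signal 75.96 and ranked 1583 and 3564. The ZK185.5 member, on chromosome IV (4544115 to 4544534), had signal 75.87 and ranked 1283 and 2701.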
